A study of Homo sapiens with 2 samples.

Results

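To compare the transcripts of glucose breakdown between an ETV6/RUNX1-positive leukemia and a leukemia without that fusion, 35 genes of glycolysis, lactate formation and pyruvate entry were examined in RNA sequencing counts of the BCP-ALL cell lines REH and 697. The genes were listed by name for their place in the pathway, and each symbol matched 1 of the 57773 gene IDs. REH is a B-cell precursor leukemia line with the ETV6/RUNX1 fusion that has lost its remaining ETV6 allele, and 697 is a line of the same cell type without that fusion. Both were grown untreated in RPMI medium with serum, each line is 1 established culture and each was sequenced as 1 library, so variation between cultures of a line cannot be seen and no p-value is given. Every ratio below therefore compares 2 libraries, and its interval is a 95% exact counting interval that covers counting error only. The REH library held 45188375 reads in genes and the 697 library 41097497.

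Glycolysis turns glucose into pyruvate in the cytosol. Hexokinase traps glucose in the cell, phosphofructokinase makes the committed step, and the later enzymes yield ATP. Lactate dehydrogenase then reduces pyruvate to lactate, which leaves through monocarboxylate transporters, whereas the pyruvate dehydrogenase complex passes pyruvate to the mitochondrial citrate cycle and is switched off by the PDK kinases. Rapidly dividing lymphoid cells are known for high glycolysis in the presence of oxygen, and hypoxia-inducible factors and MYC are known regulators of many of these genes.

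Most of the measured glycolysis and lactate genes were lower in REH than in 697. A count of 10 reads or more in either library was required for comparison, which 30 of the 35 members met, and 26 of them had a log2 ratio of REH over 697 below 0 and 4 a ratio above 0. The counting interval lay below 0 for 24 members, above 0 for 4 and included 0 for 2, PFKFB1 and SLC2A3. The median log2 ratio was -0.93 (interquartile range -1.38 to -0.33), beside 0.05 over all 19145 genes tested and 0.02 over the 13489 protein-coding genes tested. A difference by a factor of 2 or more, that is 1 on the log2 scale, was found for 14 members in the direction of 697 and for 3 in the direction of REH. Among all genes tested, 17.4% were higher in 697 and 22.4% higher in REH by this measure. Past 2 on the log2 scale there was 1 member in each direction, TPI1 and HK1, against 8.15% and 12.5% of all genes. When library totals were left unscaled every ratio rose by 0.31, so that 23 members stayed below 0, 9 were higher in 697 by a factor of 2, and the median of all genes moved to 0.36. The distance between the median of the members and that of all genes was -0.99 with either choice. Scaling shifts every ratio alike, so this distance could not have changed.

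Because ratios of abundant genes are distributed differently, the members were also set beside genes of similar level, a choice made after their values were seen. There were 14 members with a geometric mean level of 100 CPM (counts scaled to a common library size between the lines) or more. All 14 had a ratio below 0, with a median log2 ratio of -0.95, although PGK1 and PDHA1 changed sign with unscaled totals. By a factor of 2, 7 were higher in 697 and 0 higher in REH. Among the 2313 protein-coding genes at that level the median was -0.22, and by that factor 12.3% were higher in 697 and 4.58% higher in REH. These counts and shares are for scaled totals. With unscaled totals GPI (-0.94), PFKP (-0.94), GAPDH (-0.78) and LDHB (-0.71) fell short of that factor. LDHB also fell just short of it in each strand column (-0.997 in both). Together the 35 members took 301938 reads or 0.668% of the gene reads in REH (interval 0.666% to 0.671%) and 439487 reads or 1.07% in 697 (interval 1.066% to 1.073%), a share that does not depend on the scaling between libraries.

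**Figure D1:**
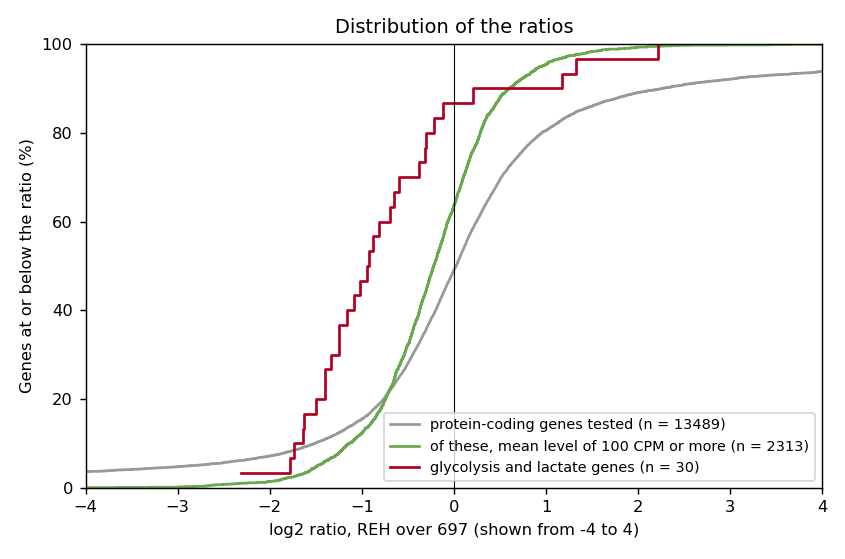
Cumulative distribution of the log2 ratio of REH over 697 (horizontal axis, shown from -4 to 4) for the 30 members tested, for 13489 protein-coding genes and for the 2313 of these with a mean level of 100 CPM or more. The vertical axis is the percentage of genes at or below a ratio, and the members reach 50% at a median of -0.93, against 0.02 for protein-coding genes and -0.22 for the abundant ones, while at the far left the curve of the members lies below that of protein-coding genes.

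Compared per length of summed exons, the order of the members was similar in the lines, with a Spearman rho of 0.936 across the 30 members, which share their library, depth and exon lengths and are not independent. GAPDH, the dehydrogenase that makes the NADH of glycolysis and a common reference transcript, stood highest in both (551 CPM per kb in REH and 1171 CPM per kb in 697). LDHB followed with levels of 249 and 504 CPM per kb. ALDOA (161 CPM per kb) came next in REH and ENO1 (349 CPM per kb) in 697, a change of neighbours in the order. The glucose transporters and the PDK kinases lay in the lower part of the order, with SLC2A1 at 4.68 and 8.22 CPM per kb and PDK3 at 0.294 and 0.919 CPM per kb.

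**Figure D2:**
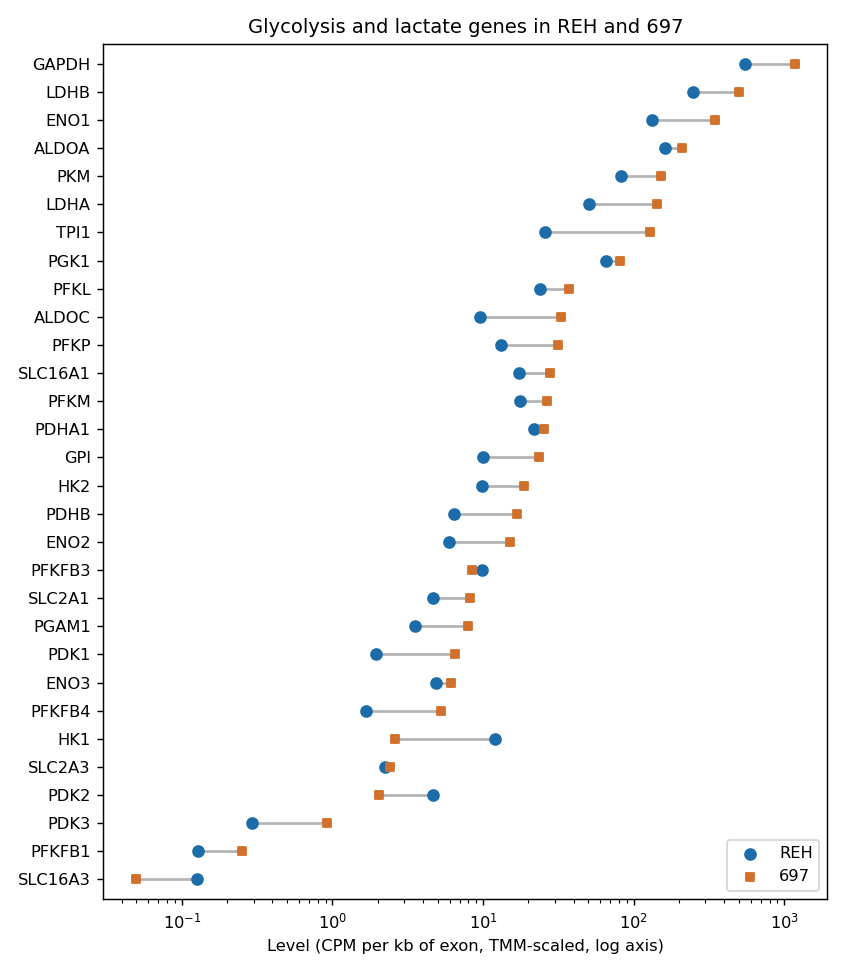
Level of each of the 30 tested members in CPM per kb of exon on a log axis, with a circle for REH, a square for 697 and a line joining them. The square lies to the right of the circle except for PFKFB3, HK1, PDK2 and SLC16A3.

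SLC2A1, the widely expressed glucose transporter GLUT1, had 1556 reads or 31.0 CPM in REH and 2009 reads or 54.4 CPM in 697 (log2 ratio -0.81, interval -0.91 to -0.72). SLC2A3, the high-affinity transporter GLUT3, had 811 and 649 reads (16.1 and 17.6 CPM, log2 ratio -0.12, interval -0.27 to 0.03), and its ratio changed sign to 0.18 with unscaled totals. SLC2A14 is a close paralog of SLC2A3, so the reads that the pair share were not counted and the level of SLC2A3 is uncertain.

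HK1, the hexokinase of most tissues, was the member with the highest ratio. It lies on chromosome 10 (69269984 to 69401884, GRCh38), and had 4159 reads or 82.7 CPM in REH against 658 reads or 17.8 CPM in 697, a factor of 4.64 (log2 ratio 2.22, interval 2.10 to 2.34). HK2, the inducible hexokinase of muscle and tumours on chromosome 2 (74834127 to 74893359), went the other way, with 2947 reads or 58.6 CPM in REH and 4109 reads or 111 CPM in 697 (log2 ratio -0.92, interval -0.99 to -0.86). HK3, a hexokinase of myeloid cells, had 2 reads in REH and 0 in 697, under the floor of 3 reads. HK1 therefore gave 58.5% of the hexokinase reads in REH (interval 57.4% to 59.7%) and 13.8% in 697 (12.8% to 14.8%), and HK2 gave 41.5% and 86.2%. Per kb of exon the HK1 shares were 54.8% and 12.1%. The summed hexokinase level was nearly level between the lines, at 141 CPM in REH against 129 CPM in 697 (log2 ratio 0.13, interval 0.08 to 0.19, and 0.44 with unscaled totals).

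**Figure D3:**
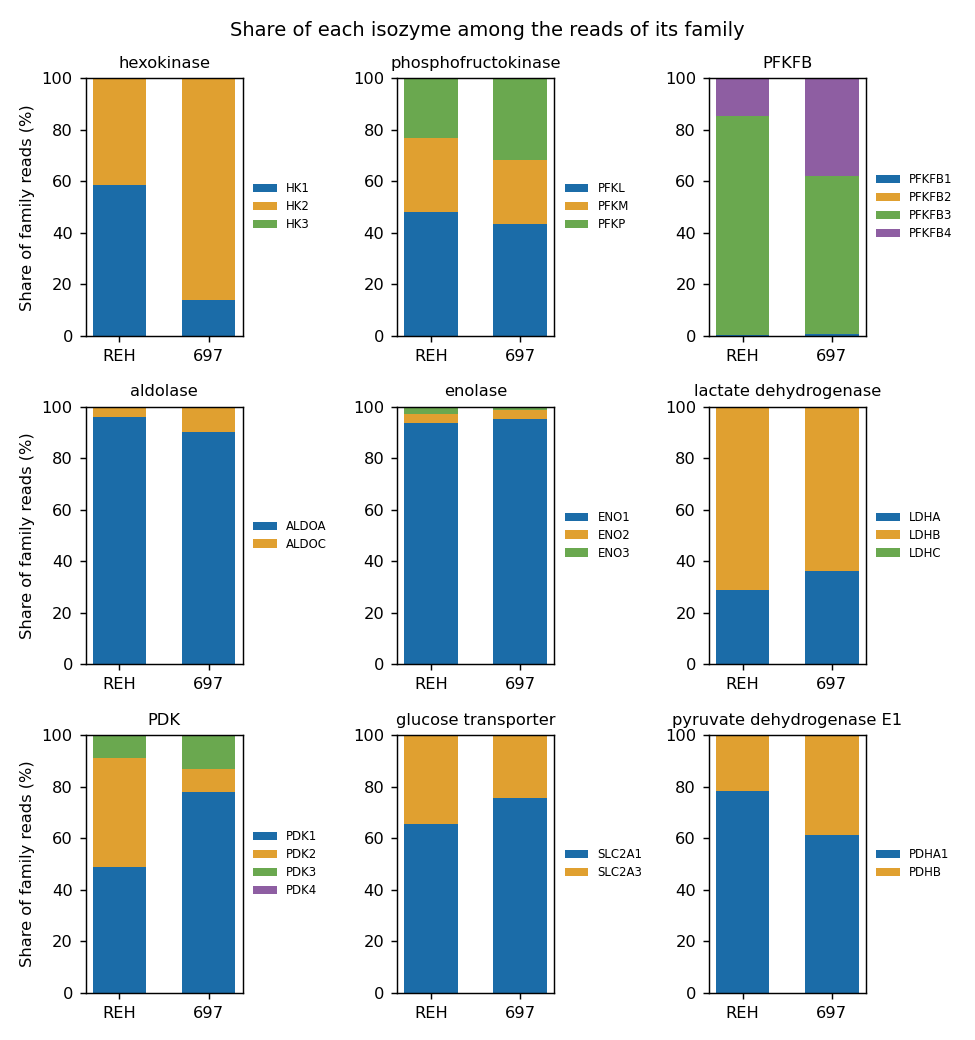
Share of reads (percent, vertical axis from 0 to 100) that each isozyme gene took within its family in REH (left bar) and 697 (right bar) for 9 families, each bar being 1 library. HK1 falls from 58.5% in REH to 13.8% in 697, PDK2 from 42.6% to 9.01% and PFKFB3 from 85.0% to 61.4%.

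Upstream sequence of HK1, HK2 and LDHA is shown because these genes carry the contrast between the hexokinases and the lactate dehydrogenase described below. The 250 bases before a RefSeq transcript start (build GRCh38.p14) are given from 5' to 3', with the letters ACGTG on either strand in capitals. ACGTG is a core that hypoxia-inducible factors bind, and CACGTG, which contains it on both strands, is also the E-box of MYC and related proteins. Other forms of the core were not searched. A run in capitals was counted once.
HK1, chr10:69269755-69270004, plus strand: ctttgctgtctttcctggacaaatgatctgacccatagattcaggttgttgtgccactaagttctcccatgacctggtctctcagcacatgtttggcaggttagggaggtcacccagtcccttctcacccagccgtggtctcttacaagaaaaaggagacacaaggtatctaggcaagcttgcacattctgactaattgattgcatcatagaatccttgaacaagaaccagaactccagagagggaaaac
HK2, chr2:74833877-74834126, plus strand: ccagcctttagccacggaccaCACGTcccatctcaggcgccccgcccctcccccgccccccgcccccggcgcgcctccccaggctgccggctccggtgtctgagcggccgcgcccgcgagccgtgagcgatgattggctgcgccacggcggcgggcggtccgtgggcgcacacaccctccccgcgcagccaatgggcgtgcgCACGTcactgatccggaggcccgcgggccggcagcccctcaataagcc
LDHA, chr11:18394313-18394562, plus strand: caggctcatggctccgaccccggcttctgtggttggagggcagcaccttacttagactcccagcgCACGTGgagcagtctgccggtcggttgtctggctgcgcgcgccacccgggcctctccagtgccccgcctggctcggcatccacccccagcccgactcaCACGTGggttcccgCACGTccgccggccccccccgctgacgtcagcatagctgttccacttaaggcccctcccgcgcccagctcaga
The HK1, HK2 and LDHA windows shown are those with the most matches among the windows of each gene and, among equals, the one whose centre is nearest to the annotated gene start. The HK2 window ended at the base before that start, and 111 of its bases lie in an exon of the noncoding gene HK2-DT on the opposite strand. The HK1 window, which overlaps the first 21 bases of the annotated gene, held no match, nor did the other 6 windows listed for HK1, while the HK2 window held 2 and the LDHA window 3. The other tested members with a ratio above 0 each had a window with a match (PDK2 1, PFKFB3 1 and SLC16A3 2). Of the tested members with a ratio below 0, ENO1, LDHB, PKM, PGAM1, PFKFB4, PFKL, ENO3, PDHA1, PFKFB1 and SLC2A1 had 0. Every other tested member below 0 that had a listed window had a match. Of 32 members with a listed window, 19 (59.4%) had a match in at least 1 window. The share was 21.7% of 27305 genes of all kinds and 28.3% of 10929 protein-coding genes tested. It was 32.3% of 1963 protein-coding genes with a mean level of 100 CPM or more. At that level 8 of 13 members had a match. Genes have unequal numbers of windows, and the members had more per gene (63 for 32 members, 35116 for 27305 genes), which raises their share. Counted by window, 22 of the 63 windows of the members (34.9%) had a match, beside 18.5% of the 35116 windows of all genes. Which transcript start was used in these cells is not given by gene counts, and a match is a run of letters, not a bound site. PFKFB2, SLC16A1 and SLC2A3 were not listed.

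From GPI to the aldolases, the isomerase, phosphofructokinase and aldolase genes were each lower in REH. GPI, which converts glucose 6-phosphate to fructose 6-phosphate, had 5342 reads (106 CPM) in REH and 9337 reads (253 CPM) in 697, with a log2 ratio of -1.25 (interval -1.30 to -1.20). The phosphofructokinase subunits had ratios of -0.65 for PFKL (liver type, 213 and 334 CPM), -0.60 for PFKM (muscle type, 127 and 192 CPM) and -1.25 for PFKP (platelet type, 103 and 244 CPM). PFKL was the leading subunit in both lines (48.1% and 43.4% of phosphofructokinase reads), and the PFKP share was 23.2% in REH (interval 22.7% to 23.8%) and 31.6% in 697 (31.1% to 32.2%). ALDOA, the main aldolase, reached 617 CPM in REH against 802 CPM in 697 (log2 ratio -0.38, interval -0.40 to -0.35), whereas ALDOC, the aldolase first known from brain, had 1259 and 3184 reads (log2 ratio -1.78, interval -1.88 to -1.69). The ALDOC share of aldolase reads was accordingly 3.90% in REH and 9.70% in 697.

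The PFKFB enzymes set the level of fructose 2,6-bisphosphate, the activator of phosphofructokinase, and did not move together. PFKFB3, the isoform with high kinase activity, had 3005 reads (59.8 CPM) in REH and 1909 reads (51.7 CPM) in 697, a log2 ratio of 0.21 (interval 0.13 to 0.29). PFKFB4 had 517 reads (10.3 CPM) and 1179 reads (31.9 CPM), a log2 ratio of -1.63 (interval -1.79 to -1.48). PFKFB3 took 85.0% of the PFKFB reads in REH and 61.4% in 697. PFKFB1, the liver isoform, had 14 and 20 reads (interval -2.06 to 0.10), and PFKFB2, the heart isoform, is listed at 0 in both lines.

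Among the later steps of glycolysis TPI1 stood out as the member with the lowest ratio. TPI1, which interconverts the triose phosphates, lies on chromosome 12 (6867119 to 6870948) and had 3522 reads or 70.1 CPM in REH against 12901 reads or 349 CPM in 697, a factor of 4.98 in favour of 697 (log2 ratio -2.32, interval -2.37 to -2.26). GAPDH had 66374 reads (1320 CPM) in REH and 103700 reads (2807 CPM) in 697, with a log2 ratio of -1.09 (interval -1.10 to -1.07). PGK1, the X-linked kinase of the ATP-forming step that follows, differed little (359 and 443 CPM, log2 ratio -0.30, interval -0.33 to -0.27), and its ratio was 0.0045 with unscaled totals. PGAM1, the phosphoglycerate mutase, was counted at 454 and 745 reads only (log2 ratio -1.16, interval -1.33 to -0.99).

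ENO1, the main enolase, had 34701 reads (690 CPM) in REH and 67320 reads (1822 CPM) in 697, with a log2 ratio of -1.40 (interval -1.42 to -1.38). The neuronal enolase ENO2 followed it closely in ratio, at 25.5 and 64.5 CPM (log2 ratio -1.34, interval -1.44 to -1.24), and its share of enolase reads was 3.47% in REH and 3.37% in 697, with overlapping intervals. PKM, the pyruvate kinase of most tissues, had 705 CPM in REH against 1298 CPM in 697 (log2 ratio -0.88, interval -0.90 to -0.86). Counts per gene do not separate its splice forms. The liver and red cell kinase PKLR had 2 and 3 reads.

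**Figure D4:**
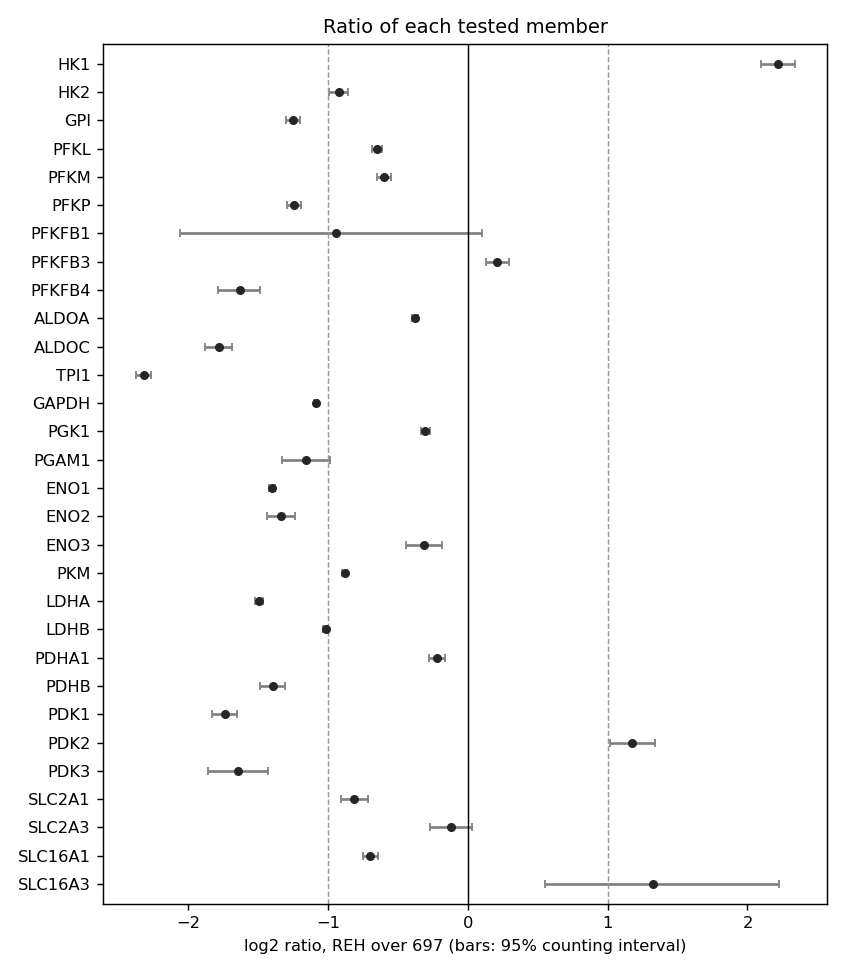
Log2 ratio of REH over 697 for the 30 tested members in pathway order (points), with 95% counting intervals as bars and dashed lines at ratios of -1 and 1. HK1 at 2.22 and TPI1 at -2.32 lie at the ends, and 26 points are below 0.

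At the end of the pathway both lactate dehydrogenase subunits were lower in REH. LDHA, the subunit that favours lactate formation (chromosome 11, 18394560 to 18408425), had 15267 reads or 304 CPM in REH and 31648 reads or 857 CPM in 697 (log2 ratio -1.50, interval -1.52 to -1.47). LDHB, the heart-type subunit (chromosome 12, 21635342 to 21757857), had 37371 reads or 743 CPM and 55579 reads or 1504 CPM, a log2 ratio of -1.02. LDHB was the larger part in both lines, and the LDHA share of the reads was 29.0% in REH (interval 28.6% to 29.4%) and 36.3% in 697, with intervals that did not overlap. Per kb of exon LDHB made up 83.2% and 78.0% of the level. The testis subunit LDHC had no read in either line. SLC16A1, the lactate transporter MCT1, had 5510 reads (110 CPM) in REH and 6565 reads (178 CPM) in 697, a log2 ratio of -0.70 (interval -0.75 to -0.64). SLC16A3, the lactate exporter MCT4 of strongly glycolytic tissues, was near absent, with 59 and 17 reads (1.17 and 0.46 CPM, log2 ratio 1.32, interval 0.55 to 2.22).

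The genes that govern pyruvate entry into mitochondria changed in composition. PDHA1, the X-linked catalytic subunit of pyruvate dehydrogenase, differed little (109 and 127 CPM, log2 ratio -0.22, interval -0.28 to -0.16, and 0.09 with unscaled totals). PDHB, the partner subunit, had 1521 reads (30.3 CPM) in REH and 2943 reads (79.7 CPM) in 697, a log2 ratio of -1.40 (interval -1.49 to -1.31). Of the kinases that inactivate the complex, PDK1 had 1458 reads (29.0 CPM) and 3578 reads (96.8 CPM), a log2 ratio of -1.74 (interval -1.83 to -1.65). PDK3 was lower in REH as well, at 258 and 593 reads (5.13 and 16.1 CPM, log2 ratio -1.64, interval -1.86 to -1.43). PDK2 was higher in REH, with 1272 reads (25.3 CPM) against 413 reads (11.2 CPM) and a log2 ratio of 1.18 (interval 1.02 to 1.34). PDK1 made up 48.8% of the PDK reads in REH (interval 47.0% to 50.6%) and 78.1% in 697 (76.8% to 79.2%), and PDK2 42.6% (40.8% to 44.4%) and 9.01% (8.20% to 9.88%). Per kb of exon PDK2 led in REH, with 67.3% of the PDK level against 28.4% for PDK1, while PDK1 led in 697 with 68.8%. The lead of PDK2 in REH rests on the annotated summed exon lengths (14845 bases for PDK1 and 5471 for PDK2), since by reads PDK1 led there. PDK4 had no read in either line.

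Summed by step or family, 15 of the 16 groups of members were lower in REH and the hexokinases were the exception. With unscaled totals 13 groups stayed lower, while phosphoglycerate kinase moved to 0.0045 and the PFKFB group from -0.26 to 0.049. The lactate dehydrogenases together reached 1047 CPM in REH against 2361 CPM in 697 (log2 ratio -1.17), and the enolases 737 and 1913 CPM (-1.38).

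Several members lie on the short arm of chromosome 12, where REH has lost an ETV6 allele, namely GAPDH, TPI1, ENO2, LDHB and SLC2A3. All 5 had a ratio below 0, with a median log2 ratio of -1.09, beside -0.88 for the 25 tested members elsewhere, and SLC2A3 changed sign with unscaled totals. The 144 protein-coding genes of that arm with at least 100 reads in a library had a median of -0.07. The copy number of these genes in the lines was not analysed here.

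Some counts carry limits that come from the gene models. Reads that match several places were not counted, and they made up 10.8% of all reads in REH and 15.4% in 697. Reads outside annotated genes made up 12.7% and 9.32%. The part of these differences between the libraries in the ratios was not tested. Among annotated pseudogenes, 110 are named after 14 of the members, 64 of them after GAPDH. Reads counted at these pseudogenes came to 886 in REH and 1086 in 697. For PGAM1 they equalled 36.6% of its own reads in REH and 14.8% in 697, so that its level is uncertain, while for TPI1 they equalled 2.16% and 1.31%. Reads that overlap genes on both strands were also left out. The strand columns summed to 1.63 times the GAPDH count in REH and 1.64 times in 697. This is the most by which the overlap alone could understate its level, since these columns also give it the reads of the overlapping antisense gene. Reads that match several places are missing from the strand columns as well. For ENO3, the muscle enolase that overlaps PFN1 on the opposite strand, the sums were 6.33 and 9.83 times its count (1059 and 967 reads), and its ratio of -0.31 (interval -0.44 to -0.19) became -0.92 and -0.93 in the strand columns. Its share of enolase reads, 2.86% in REH and 1.37% in 697, was 13.3% and 10.0% in the first strand column. For PDK2, which overlaps SAMD14, the sums were 1.56 and 1.52 times its count. Its ratio was 1.30 and 1.18 in the strand columns, and its share of PDK reads in REH was 51.6% and 53.1% there, above PDK1 (41.5% and 40.2%). As for GAPDH, the strand columns of ENO3 and PDK2 also hold reads of the overlapping gene. Their values there are therefore not corrected levels, and their shares there may be too high. By reads on either strand PDK1 led in REH (48.8% against 42.6% for PDK2).

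The stated cell type, which both lines share, was checked with markers of B-cell precursors. The check concerns the cell type and not the identity of each line. All 10 had at least 10 reads in a line, VPREB1 in 697 only. The levels differed in both directions, with CD79B (481 and 120 CPM), RAG1 (1535 and 577 CPM) and CD79A (655 and 287 CPM) higher in REH by a factor of 2. DNTT (1142 and 4433 CPM) and VPREB1, a surrogate light chain gene (3 reads in REH and 10039 in 697), were higher in 697 by that factor. The B-lineage factor PAX5 had 792 CPM in REH and 1224 CPM in 697. The summed level of the 10 markers was 5577 CPM in REH and 8091 CPM in 697. Of 15 markers of other cells, 6 had at least 10 reads in a library, 6 had no read in either library, and their summed level was 287 CPM in REH and 67.0 CPM in 697. The sum in REH was mostly MPO, a granule enzyme of myeloid cells, at 252 CPM against 0.325 CPM. The other myeloid markers were low, with CD14 at 29 and 8 reads, CSF1R at 30 and 61 reads and LYZ at 1 and 2 reads. The sum in 697 was mostly the stroma markers PDGFRB (23.8 CPM in REH and 54.3 CPM in 697) and COL1A1 (9.49 and 10.5 CPM). The T-cell marker CD3E had 45 reads in REH and 0 in 697. The part of these differences in the ratios of the glycolysis genes was not tested.

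Further genes of the same metabolism were examined in 8 lists, of which 64 of 84 genes were tested. Among all genes tested, 17.4% were higher in 697 by a factor of 2 and 22.4% higher in REH. The lists are small, and counts near these shares do not set a list apart. The pentose phosphate genes, which branch off at glucose 6-phosphate and supply NADPH and ribose, were mostly lower in REH. All 8 tested had a ratio below 0 (median log2 ratio -0.56), although not all stayed below 0 with unscaled totals, and 3 were higher in 697 by a factor of 2. These were H6PD (34.7 and 110 CPM, log2 ratio -1.67), TKT (267 and 784 CPM, -1.55) and RPIA (23.4 and 51.8 CPM, -1.14).

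Of 6 other glycolysis genes tested, 2 were higher in 697 by a factor of 2 and 1 was higher in REH (median -0.28). The shares of all genes tested were 17.4% and 22.4%. With unscaled totals the median became 0.03 and 0 were higher in 697. PGM1 and PGM2, which connect glycogen and nucleoside sugars to glycolysis, had log2 ratios of -1.20 and -1.17, and GALM, which interconverts the anomers of hexoses, had a ratio of 1.30 (26.7 and 10.8 CPM). Of 3 tested gluconeogenesis genes (median -0.24, and 0.06 with unscaled totals), PCK2, the mitochondrial phosphoenolpyruvate carboxykinase, reached 73.5 CPM in REH against 260 CPM in 697 (log2 ratio -1.82, interval -1.87 to -1.76). The cytosolic enzyme PCK1 had 235 reads in REH and 1 in 697 (interval of the log2 ratio 4.94 to 12.74).

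Pyruvate entry genes were split in direction, with 3 of 9 tested higher in 697 by a factor of 2 and 2 higher in REH (median -0.40). Across all genes tested these shares were 17.4% and 22.4%. DLAT, the E2 subunit of the pyruvate dehydrogenase complex, had 32.4 and 89.3 CPM (log2 ratio -1.46), and PDP1, a phosphatase that reactivates the complex, 9.93 and 22.1 CPM (-1.16). The other phosphatase PDP2 had 61.6 CPM in REH and 30.5 CPM in 697, a ratio of 1.01 that fell just under 1 with DESeq2 size factors. The phosphatase regulator PDPR was higher in REH, at 184 and 53.6 CPM (1.78). A copy of PDPR is annotated as a pseudogene on the same chromosome, so the PDPR count is uncertain. Of the subunits of the mitochondrial pyruvate carrier, MPC2 had 23.6 and 64.1 CPM (-1.44) and MPC1 1068 and 812 reads (-0.05, interval -0.18 to 0.08).

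Of 6 tested lactate and monocarboxylate genes (median 0.05, which was -0.03 in the first strand column), SLC16A7, the transporter MCT2, had 3.22 and 13.0 CPM (log2 ratio -2.01) and LDHD was counted at 14 and 4 reads (1.24, interval -0.31 to 3.42), a call that was lost with 5 reads added and in the first strand column. BSG, the chaperone of MCT1, was nearly level at 252 and 260 CPM (-0.04, interval -0.08 to -0.00). The other chaperone EMB had a ratio of 0.26. Of 9 tested hexose transporters, 7 had a ratio above 0 (median 0.42). By a factor of 2, 4 were higher in REH and 1 was higher in 697, beside 22.4% and 17.4% of all genes tested. SLC2A5, the fructose transporter, had 661 reads in REH and 59 in 697 (3.03, interval 2.66 to 3.45). SLC2A9, a urate transporter, had 196 reads in REH and 0 in 697. It was 48.0-fold higher in REH when 3 reads are taken as the 697 level, and its counting interval began at a log2 ratio of 5.27. The inositol transporter SLC2A13 had 3 reads in REH and 443 in 697 (interval -9.93 to -6.09).

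**Figure D5:**
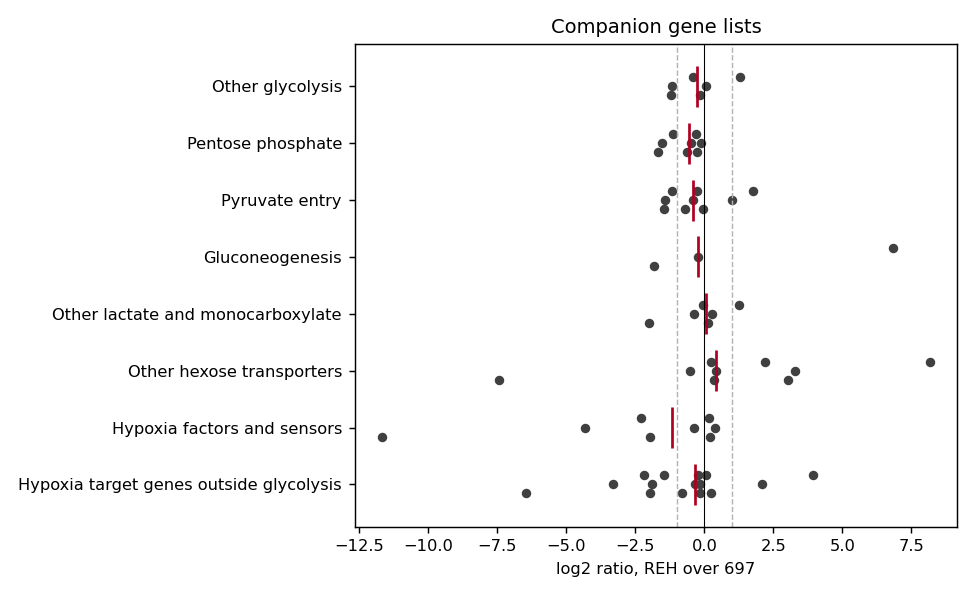
Log2 ratio of REH over 697 for the tested genes of 8 further lists of glucose metabolism and hypoxia response (points, shifted vertically for legibility), with the median of each list as a vertical bar and dashed lines at -1 and 1. All 8 tested pentose phosphate genes lie below 0 (not all with unscaled totals), and the lowest point is ARNT2, which had 0 reads in REH.

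Genes of the hypoxia response were examined because hypoxia-inducible factors are known regulators of glycolysis genes. Of 8 tested factors and sensors, 4 were higher in 697 by a factor of 2 and 0 were higher in REH. The shares of all genes tested were 17.4% and 22.4%, and the median log2 ratio of the list was -1.18. HIF1A, the oxygen-regulated factor itself, had 2232 reads (44.4 CPM) in REH and 7976 reads (216 CPM) in 697 (log2 ratio -2.28, interval -2.35 to -2.21). EPAS1, which encodes the related factor HIF-2 alpha, had 226 reads (4.50 CPM) and 3361 reads (91.0 CPM), with a ratio of -4.34 (interval -4.54 to -4.14). The shared partner ARNT differed less (66.9 and 86.4 CPM, -0.37), whereas ARNT2 had 0 reads in REH and 1205 in 697. It was 546-fold lower in REH when 3 reads are taken as the REH level, and its counting interval ended at a log2 ratio of -8.79. The sensor EGLN1 had a ratio of -1.99, whereas EGLN2 and HIF1AN, also sensors, had ratios of 0.38 (interval 0.23 to 0.53) and 0.19 (interval 0.13 to 0.25). VHL, which marks the factors for degradation, had a ratio of 0.16. These are transcript levels and do not give the amount of factor protein.

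Known hypoxia target genes outside glycolysis were mixed. Of 15 tested, 6 were higher in 697 by a factor of 2, 2 were higher in REH, and the median was -0.35. Across all genes tested the shares were 17.4% and 22.4%. STC2 (2.43 and 215 CPM, log2 ratio -6.46), NDRG1 (5.71 and 56.5 CPM, -3.30) and P4HA1, a collagen hydroxylase (17.9 and 80.6 CPM, -2.17), lay farthest in the direction of 697. BHLHE40, a transcriptional repressor, was higher in REH (57.4 and 13.4 CPM, 2.10), as was ADM with 10 and 0 reads. CA9, a target often used as a hypoxia marker, had 6 and 3 reads.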

How the data were processed

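Total RNA of REH and 697 was sequenced, 1 library per line, and grouped by the cell line in the sample labels. The authors deposited raw read counts per gene from STAR, for either strand and for each strand, without normalization. The methods of the study name hg38 and poly(A) purification, whereas the submitters' notes name hg19 and the labels ribodepletion and strand-specific libraries. The strand totals were nearly equal (50.1% and 50.2% on the strand of the first column), so reads on either strand were used. The build and annotation release behind the counts therefore remain uncertain. GENCODE 44 (GRCh38) supplied symbols, exon lengths and positions through the gene IDs, of which 51996 of 57773 matched. These are not the authors' coordinates.

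A gene was compared where either library held 10 reads or more. Totals were scaled with TMM in edgeR 4.0.16 under R 4.3.3 (factors 1.11 for REH and 0.899 for 697), 0.5 reads were added before the ratio, and intervals are exact Clopper-Pearson intervals. PCR duplicates are not independent molecules, so intervals and floors cover counting error only. After scaling, the floor of 3 reads corresponded to 0.0597 CPM (REH) and 0.0812 CPM (697). The members, lists and alternatives were chosen with earlier results of these data known. All 35 members are named, along with at most 3 genes per direction and list whose interval lay farthest from 0, some fixed genes (HIF1A, EPAS1, ARNT, MPC1, MPC2 and BSG) and, chosen after their values were seen, LDHD, EGLN1, CA9, ADM and the markers shown. Alternatives were DESeq2 1.42.0 size factors, unscaled totals, factors from protein-coding genes, totals without mitochondrial genes, other read minimums, 5 reads added, each strand column and shares per kb of exon. The computation was tested on simulated data. Python 3.11.15, pandas 2.3.3 and scipy 1.17.1 were used.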

Additional observations from a re-analysis of the deposited data

How the results depend on the processing

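No paired analysis was possible because the data used here hold 1 library of each line, and leaving out a replicate was not possible for the same reason. The median ratio of the members stayed below 0 under each alternative run. The number of members higher in 697 by a factor of 2 was 9 with unscaled totals, as GPI, PFKP, GAPDH, PGAM1 and LDHB then had smaller ratios, and 13 or 14 under the other settings. With unscaled totals the log2 ratio became 0.0045 for PGK1, 0.086 for PDHA1 and 0.18 for SLC2A3, and the medians became 0.027 for other glycolysis genes and 0.063 for gluconeogenesis genes. The SLC2A3 ratio was 0.091 in the second strand column, and the median of other lactate and monocarboxylate genes was -0.034 in the first strand column. No other sign of a member or of a list median changed. Depth limits HK3, PKLR, PFKFB2, LDHC and PDK4, with at most 3 reads in each library.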
